A study of Sus scrofa with 6 samples.

Results

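Ion channels set the electrical behaviour of the muscle fibre membrane. Acetylcholine opens receptor channels at the nerve contact, voltage-gated sodium channels carry the action potential, and a voltage-sensing calcium channel complex in the transverse tubules couples it to calcium release. Potassium and chloride channels then bring the membrane back to rest. Transcripts of these families were examined in longissimus dorsi, a muscle along the spine, of Wannanhua pigs, a local Chinese breed, and of Yorkshire pigs, a lean commercial breed. A gene was taken when its Ensembl pig identifier mapped to a symbol starting with KCN, CACN, CLCN or CHRN, or with SCN and a digit, and the rule left out 1 of the genes so named. This gave 86 of the 17627 genes in the table: 44 potassium, 16 calcium, 11 sodium, 6 chloride and 9 acetylcholine receptor genes. The choice used names and no measured value.

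There were 3 Wannanhua and 3 Yorkshire libraries, all labelled as 5 months of age, although the design text of the series speaks of piglets. The animals' sex and treatment are not given in the labels, nor whether each library is an animal of its own. P-values thus rest on the spread among the 6 libraries, which may be technical. Levels are FPKM, the authors' fragment counts scaled for transcript length and library depth, so levels can be compared between genes. Reads recovered from the deposited values numbered 16385602 to 21056702 per library. The tissue label was checked against desmin (DES) and nebulin (NEB), structural proteins of muscle. DES averaged 4917 FPKM in Wannanhua and 2501 FPKM in Yorkshire, and NEB 1018 and 809 FPKM.

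Most genes of these families were scarcely detected in back muscle. The highest of the 6 libraries stayed under 1 FPKM for 52 of the 86 genes and under 0.1 FPKM for 24 of them, and 32 were listed at 0 in at least 1 library. Only 8 genes averaged 10 FPKM or more, among them SCN4A, CACNG1, CACNB1, CACNA2D1, CACNG6, KCNA7 and CLCN4. A level of at least 1 FPKM in 3 or more libraries was required for the test, and 28 genes met it: 15 potassium, 4 calcium, 2 sodium, 4 chloride and 3 acetylcholine receptor genes. Of these 28, 18 reached 1 FPKM in every library, and none passed through the libraries of 1 breed alone. Of the 58 not tested, 6 reached 1 FPKM in 1 or 2 libraries (CACNA2D3, KCNIP2, CHRNA9, CHRNA6, KCNMB1 and CLCN6). The name of the group is also wider than the membrane of the fibre: CLCN3, CLCN4, CLCN6 and CLCN7 encode transporters of endosomes and lysosomes.

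**Figure D1:**
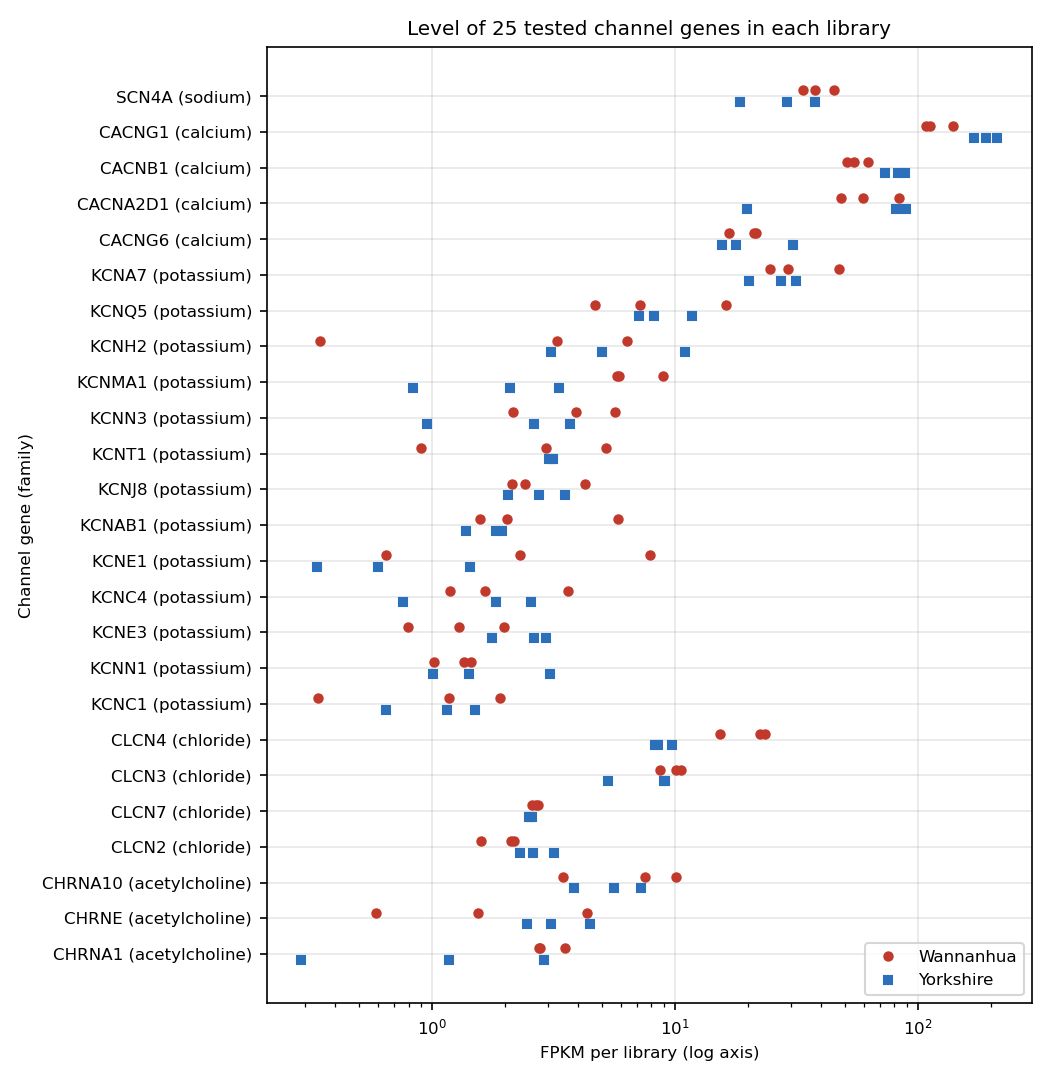
FPKM of 25 of the 28 tested channel genes in each library, on a log axis, by family and then by mean level. Circles are the 3 Wannanhua libraries and squares the 3 Yorkshire libraries. CACNG1 stands highest of those drawn, at 212 FPKM in Yorkshire 2, and KCNA7 is the only potassium channel gene above 20 FPKM in all 6 libraries.

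Which genes differ between the muscles of the 2 breeds is the question of the series. Among the channel genes, an endosomal chloride transporter gene, CLCN4, was higher in Wannanhua muscle, at 2.31 times the Yorkshire mean. It was 1 of the 2 tested channel genes, of 28, past an adjusted p of 0.05 in limma, a linear model of log2(FPKM + 1) fitted to the whole table. Over all 11791 genes tested, 3.05% were past it. In the higher direction the count was 2 of 28 against 1.76% of all genes, and in the lower direction it was 0 against 1.29%. A count of 2 is too small to set the channel genes apart from these shares. At an unadjusted limma p under 0.05 stood 5 channel genes, 3 higher and 2 lower, against 22.1% of all genes. The breeds did not overlap in 7 of 28, against 29.9% of all tested genes. Of these, 4 were higher, against 20.3% of all, and 3 lower, against 9.63%.

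The log2 fold changes of the 28 genes, Wannanhua minus Yorkshire, had a median of 0.12, which is also the median of all tested genes. After quantile normalization of the libraries the 2 medians were -0.01 and 0.00. By family the median was 0.20 for potassium, -0.29 for calcium, 0.19 for chloride and 0.23 for the acetylcholine receptor genes. Positive values were found in 9 of 15 potassium, 1 of 4 calcium, 3 of 4 chloride and 2 of 3 acetylcholine receptor genes. After quantile normalization the family medians were 0.09, -0.34, 0.03 and 0.10 in the same order. Those of potassium and chloride turned negative in edgeR, as given below.

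**Figure D2:**
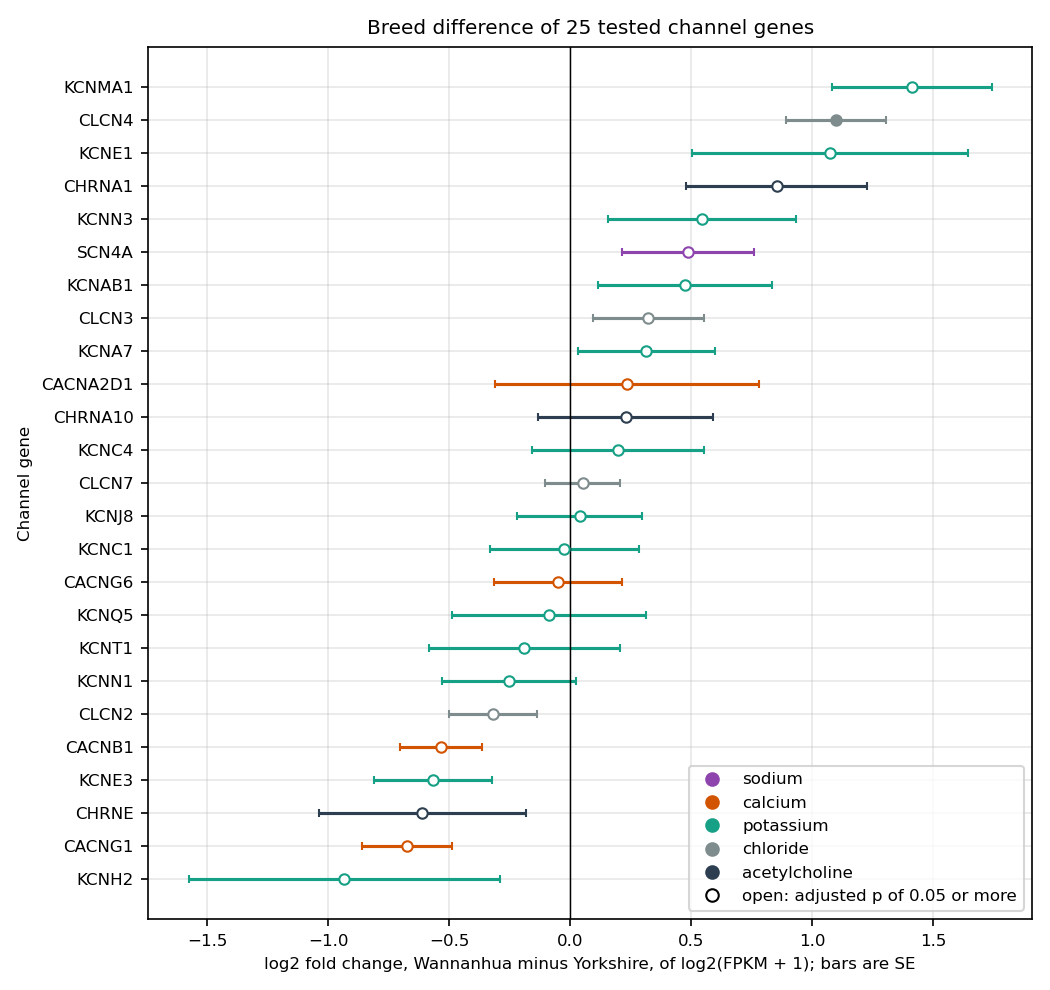
Log2 fold change of 25 of the 28 tested channel genes, Wannanhua minus Yorkshire, fitted to log2(FPKM + 1), with its SE as a bar and the family as colour. The filled point, CLCN4 at 1.10, had an adjusted p under 0.05. KCNMA1 has the largest value, 1.41, and is open.

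Of the sodium channel genes, 2 reached the test and 0 passed in limma (0 at an unadjusted p under 0.05, 0 in edgeR and 0 in DESeq2). SCN4A (ENSSSCG00000017282) encodes the pore-forming subunit of the skeletal muscle sodium channel, which carries the action potential of the fibre. It stood at 33.7, 37.9 and 45.3 FPKM in Wannanhua 1, 2 and 3, and at 18.5, 37.8 and 29.1 FPKM in Yorkshire 1, 2 and 3. Wannanhua 1 lay below Yorkshire 2, so the breeds overlapped, and the lowest value was that of Yorkshire 1. The log2 fold change was 0.49, with a 95% interval from -0.15 to 1.12 (limma adjusted p = 0.338). In Yorkshire 1 the longest of 3 equal length classes of genes lay at a median of -0.25 from their mean over the libraries on the log2 scale, against -0.07 for the shortest class. SCN4A and CACNA2D1 are in the longest class, as is CLCN4, whose highest Yorkshire value was that of Yorkshire 1. KCNMA1 and KCNN3, also lowest in Yorkshire 1, are in the middle class, and CHRNA1, likewise lowest there, is in the shortest. The part of transcript length in these values was not tested.

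Of the 11 sodium channel genes, 9 stayed under 1 FPKM in every library. SCN7A (ENSSSCG00000015914), a sodium-sensing relative of the voltage-gated channels and the highest of the 9, stood at 0.142 ± 0.0464 FPKM in the Wannanhua libraries and 0.122 ± 0.0490 FPKM in the Yorkshire libraries (SD, n = 3), from 5 to 12 reads per library. It was too low for the test. SCN1A, SCN9A and SCN7A follow each other in the RefSeq order of the pig genome. Such neighbours are similar in sequence, and the labels do not say how reads matching several genes were shared.

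Among calcium channel genes, 2 subunits of the skeletal muscle voltage sensor were lower in every Wannanhua library than in any Yorkshire library, without passing the test. CACNG1 (ENSSSCG00000017271), the gamma 1 subunit, stood at 108, 112 and 139 FPKM in Wannanhua 1, 2 and 3, and at 191, 212 and 171 FPKM in Yorkshire 1, 2 and 3. The mean was 120 ± 16.9 FPKM in the Wannanhua libraries and 191 ± 20.9 FPKM in the Yorkshire libraries (SD, n = 3). The difference was -0.67 ± 0.19 on the log2 scale (SE; limma adjusted p = 0.0986, and 0.00696 to 0.278 over 16 alternatives). CACNB1 (ENSSSCG00000017510), the beta 1 subunit that brings the pore-forming subunit to the membrane, behaved alike. It stood at 51.3, 62.3 and 54.8 FPKM in Wannanhua 1, 2 and 3, and at 73.6, 88.5 and 83.0 FPKM in Yorkshire 1, 2 and 3. The difference was -0.53 ± 0.17 on the log2 scale (SE; limma adjusted p = 0.130, and 0.00725 to 0.314 over 16 alternatives). Of these alternatives DESeq2 on the recovered reads put both genes past the threshold, and no other did. DESeq2 called 9.61% of all genes, 4.81% higher and 4.79% lower.

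The breeds overlapped in CACNA2D1 and CACNG6. CACNA2D1 (ENSSSCG00000015402), the alpha 2 delta 1 subunit that helps place the channel in the membrane, stood at 83.4, 48.3 and 59.4 FPKM in Wannanhua 1, 2 and 3, and at 19.8, 89.2 and 81.1 FPKM in Yorkshire 1, 2 and 3. Yorkshire 1 alone lay below all Wannanhua libraries, while the other two Yorkshire libraries lay close to or above the highest of them. The log2 fold change of 0.24, with a 95% interval from -1.04 to 1.51 (limma adjusted p = 0.834), turned to -0.45 without Yorkshire 1. It was -0.12 in edgeR on the recovered reads. CACNG6, a further gamma subunit picked once its values were known, stood at 19.9 ± 2.70 FPKM in the Wannanhua libraries and 21.4 ± 8.01 FPKM in the Yorkshire libraries (SD, n = 3). The ratio of CACNG1 to CACNB1 ran from 1.80 to 2.54 in Wannanhua and from 2.06 to 2.60 in Yorkshire, and so overlapped.

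A calcium channel subunit outside this complex was higher in the count test. CACNA2D3 (ENSSSCG00000027019) encodes the alpha 2 delta 3 subunit, known from nerve cells. It stood at 2.98, 3.33 and 0.815 FPKM in Wannanhua 1, 2 and 3, and at 0.247, 0.255 and 0.0710 FPKM in Yorkshire 1, 2 and 3. These rest on 78, 88 and 20 reads in Wannanhua and on 6, 7 and 2 reads in Yorkshire. All Wannanhua libraries lay above all Yorkshire libraries, and Wannanhua 3 was the nearest to them. The gene did not reach the filter of the main test. It met edgeR's filter on reads through the Wannanhua libraries alone, the breed in which it was higher. In edgeR's quasi-likelihood test on the recovered reads, which called 2.87% of 13065 genes and 1.41% in the higher direction, its log2 fold change was 3.52 (adjusted p = 0.0356, and 1.91e-05 to 0.144 over 10 alternatives). That call was lost without any single library other than Wannanhua 3, and in limma with the filter lowered to 0.1 FPKM (adjusted p = 0.0761).

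Potassium channel genes were the largest family, with 15 of 44 tested. KCNQ5 (ENSSSCG00000004281), a slowly opening channel of the M-current family, stood at 16.2, 7.15 and 4.67 FPKM in Wannanhua 1, 2 and 3, and at 7.14, 8.17 and 11.8 FPKM in Yorkshire 1, 2 and 3. Wannanhua libraries were both the highest and the lowest for KCNQ5, and the difference was -0.09 ± 0.40 on the log2 scale (SE; limma adjusted p = 0.920).

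KCNMA1 (ENSSSCG00000010325), the large-conductance potassium channel opened by calcium and voltage, had the largest log2 fold change of the 28 genes. It stood at 5.78, 8.90 and 5.87 FPKM in Wannanhua 1, 2 and 3, and at 0.831, 3.32 and 2.09 FPKM in Yorkshire 1, 2 and 3. The breeds did not overlap, and Yorkshire 1 was the lowest, with 29 reads. The log2 fold change of 1.41 ± 0.33 (SE) did not pass (limma adjusted p = 0.0678, and 0.00302 to 0.207 over 16 alternatives, of which DESeq2 and the fit with the replicate number as a block put it past the threshold). KCNMA1 is abundant in vessel walls. Of 8 smooth muscle and pericyte markers, 7 were in the table and none was listed at 0, and their summed level ran from 87.8 to 241 FPKM in Wannanhua and from 104 to 147 FPKM in Yorkshire. The part of vessel cells in the KCNMA1 difference was not tested. KCNMB1, the beta subunit that joins this channel in smooth muscle, had 3, 4 and 19 reads in Wannanhua 1, 2 and 3, and 0, 2 and 6 reads in Yorkshire 1, 2 and 3.

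**Figure D3:**
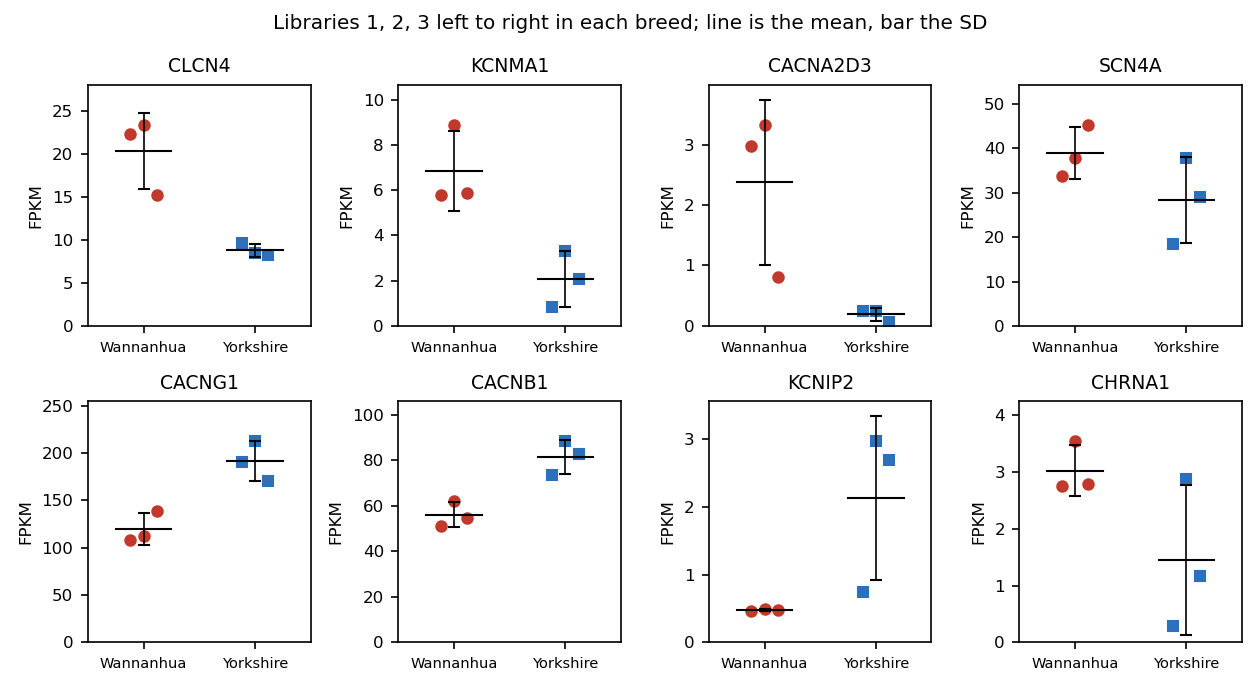
FPKM of 8 channel genes in each library, with the mean as a line and the SD as a bar (n = 3 libraries per breed). CLCN4, KCNMA1 and CACNA2D3 are higher in every Wannanhua library than in any Yorkshire library, CACNG1, CACNB1 and KCNIP2 are lower, and SCN4A and CHRNA1 overlap. Of these CLCN4 passed in limma, and CACNA2D3 and KCNIP2 in edgeR. CACNA2D3 met edgeR's filter on reads through the Wannanhua libraries alone.

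KCNIP2 (ENSSSCG00000010570) encodes a calcium-binding partner of the Kv4 potassium channels, best known from the heart. It stood at 0.468, 0.495 and 0.475 FPKM in Wannanhua 1, 2 and 3, and at 0.737, 2.96 and 2.68 FPKM in Yorkshire 1, 2 and 3. The Wannanhua libraries were close together and all below the Yorkshire libraries, of which Yorkshire 1 was the lowest. It had 16 to 18 reads in each Wannanhua library, and 25, 111 and 107 reads in Yorkshire 1, 2 and 3. KCNIP2 did not reach the filter of the main test. In edgeR, where 1.46% of genes were called lower, its log2 fold change was -2.24 (adjusted p = 0.0484, and 0.000377 to 0.178 over 10 alternatives). The call held without Yorkshire 1 and was lost without any other single library. KCND1, the Kv4 gene in the table, stayed under 0.1 FPKM in all 6 libraries.

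The most abundant potassium channel gene was KCNA7 (ENSSSCG00000003159), a voltage-gated channel of the Shaker family found in skeletal muscle and heart. It stood at 29.3, 47.2 and 24.6 FPKM in Wannanhua 1, 2 and 3, and at 27.3, 31.5 and 20.1 FPKM in Yorkshire 1, 2 and 3. The breeds overlapped, with a log2 fold change of 0.32 and a 95% interval from -0.34 to 0.97 (limma adjusted p = 0.548). KCNC1 and KCNC4, fast-gating Kv3 channels, were near 1 to 2 FPKM in both breeds. KCNC1 averaged 1.14 ± 0.780 FPKM in Wannanhua and 1.10 ± 0.430 in Yorkshire, and KCNC4 2.15 ± 1.30 and 1.72 ± 0.90 FPKM (SD, n = 3; limma adjusted p = 0.974 and 0.780).

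The libraries of the breeds overlapped in KCNN3, KCNAB1, KCNE3 and KCNH2, and none of these passed in limma. KCNN3 (ENSSSCG00000006542), a small-conductance channel that reappears in denervated rodent muscle, stood at 2.16, 3.91 and 5.68 FPKM in Wannanhua 1, 2 and 3, and at 0.954, 3.70 and 2.62 FPKM in Yorkshire 1, 2 and 3. The difference was 0.55 ± 0.39 on the log2 scale (SE; limma adjusted p = 0.445). KCNAB1, a cytosolic beta subunit of Shaker channels, reached 5.80 FPKM in Wannanhua 1 and lay between 1.38 and 2.04 FPKM in the other 5 libraries. KCNE3, a single-pass subunit that partners several voltage-gated channels, averaged 1.35 ± 0.593 FPKM in the Wannanhua libraries and 2.45 ± 0.609 FPKM in the Yorkshire libraries (SD, n = 3), with a log2 fold change of -0.57 and a 95% interval from -1.14 to 0.00 (limma adjusted p = 0.229). The widest spread lay in KCNH2, the hERG channel, which was picked once its values were known. It stood at 0.346, 3.27 and 6.36 FPKM in Wannanhua 1, 2 and 3, and at 3.09, 11 and 5.01 FPKM in Yorkshire 1, 2 and 3.

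Of the chloride family, CLCN4 alone passed in limma. CLCN4 (ENSSSCG00000024809) encodes ClC-4, a chloride-proton exchanger of endosomes and not a surface channel. It stood at 22.4, 23.4 and 15.3 FPKM in Wannanhua 1, 2 and 3, and at 9.70, 8.49 and 8.25 FPKM in Yorkshire 1, 2 and 3. The breeds were well apart, with 810 to 1365 reads in Wannanhua and 486 to 553 in Yorkshire, and Wannanhua 3 was the nearest to Yorkshire. The mean was 20.3 ± 4.44 FPKM in the Wannanhua libraries and 8.81 ± 0.775 FPKM in the Yorkshire libraries (SD, n = 3). The difference was 1.10 ± 0.21 on the log2 scale (SE; limma adjusted p = 0.0424). In edgeR it was 1.06 and did not pass (adjusted p = 0.0653), and over 16 alternatives the adjusted p ran from 0.00670 to 0.156, with log2 fold changes from 0.99 to 1.29. Leaving out any single library other than Wannanhua 3 ended the limma call.

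The other tested chloride genes did not pass in limma or in edgeR. CLCN3 (ENSSSCG00000009713), an endosomal exchanger close to ClC-4, averaged 9.80 ± 1.0 FPKM in the Wannanhua libraries and 7.81 ± 2.17 FPKM in the Yorkshire libraries (SD, n = 3; limma adjusted p = 0.443). CLCN7 (ENSSSCG00000008024), the lysosomal exchanger, was the steadiest of the tested genes, at 2.67, 2.73 and 2.59 FPKM in Wannanhua 1, 2 and 3, and at 2.50, 2.57 and 2.54 FPKM in Yorkshire 1, 2 and 3. The breeds did not overlap, yet the log2 fold change was 0.05, with a 95% interval from -0.31 to 0.41, and it turned to -0.10 after quantile normalization. CLCN2 (ENSSSCG00000021581), a surface chloride channel opened by hyperpolarization, stood at 2.11, 2.17 and 1.60 FPKM in Wannanhua 1, 2 and 3, and at 2.31, 3.17 and 2.59 FPKM in Yorkshire 1, 2 and 3. It was lower in every Wannanhua library, with a log2 fold change of -0.32 ± 0.18 (SE, limma adjusted p = 0.348). In edgeR the log2 fold change of CLCN2 was -0.56 (adjusted p = 0.190). CLCN1, the main chloride channel of the fibre surface, is not analysed here.

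Subunits of the muscle acetylcholine receptor were low and uneven, and none passed the test. CHRNA1 (ENSSSCG00000015969), the alpha subunit that binds acetylcholine, stood at 2.75, 3.54 and 2.78 FPKM in Wannanhua 1, 2 and 3, and at 0.290, 2.88 and 1.18 FPKM in Yorkshire 1, 2 and 3. Yorkshire 2 lay within the Wannanhua range and Yorkshire 1, with 5 reads, far below it. The difference was 0.85 ± 0.37 on the log2 scale (SE; limma adjusted p = 0.234). CHRNE (ENSSSCG00000017909), the epsilon subunit of the adult receptor, stood at 0.588, 4.34 and 1.54 FPKM in Wannanhua 1, 2 and 3, and at 3.08, 2.45 and 4.45 FPKM in Yorkshire 1, 2 and 3. The breeds overlapped, with a log2 fold change of -0.61 ± 0.43 (SE; limma adjusted p = 0.437). CHRNA10 (ENSSSCG00000014796), known from the hair cells of the inner ear, had the highest level of the family, at 7.05 ± 3.37 FPKM in the Wannanhua libraries and 5.56 ± 1.72 FPKM in the Yorkshire libraries (SD, n = 3; limma adjusted p = 0.749). Transcripts of the junction come from a small part of each fibre, and in bulk tissue fewer cells of a type and less RNA per cell cannot be told apart.

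Of 7 slow-fibre markers, 5 were in the table, none was listed at 0, and 1 passed in limma, CSRP3, higher in Wannanhua. Their summed level ran from 10790 to 43290 FPKM in Wannanhua and from 5638 to 17290 FPKM in Yorkshire, so the breeds overlapped. Of 9 fast-fibre markers, 5 were in the table, none was listed at 0, and 1 passed in limma, CASQ1, lower in Wannanhua. Their summed level did not overlap, at 11070 to 34770 FPKM in Wannanhua and 51310 to 51590 FPKM in Yorkshire. Wannanhua 3 was the Wannanhua library with the lowest slow and the highest fast sum. It was also the lowest Wannanhua library for CLCN4 and CACNA2D3, and the highest for CACNG1. For KCNMA1 the lowest Wannanhua library was Wannanhua 1, and for CACNB1 the highest was Wannanhua 2. The part of fibre type in these differences was not tested.

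**Figure D4:**
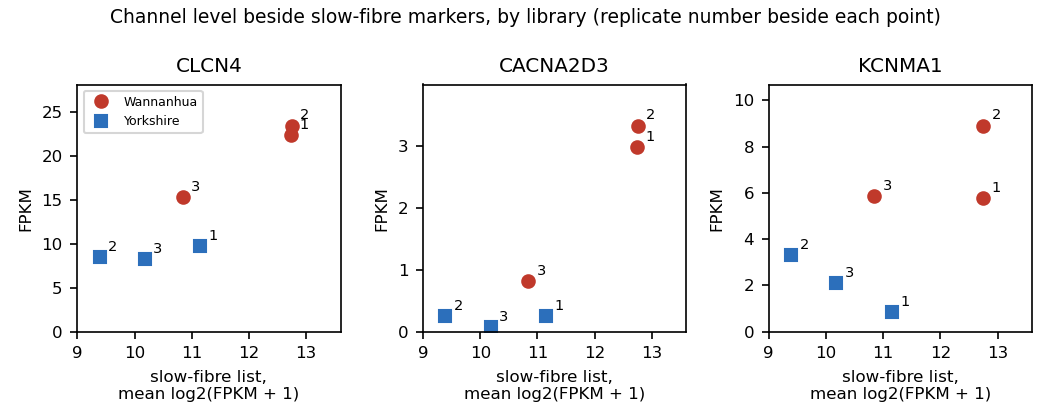
FPKM of 3 channel genes against the mean log2(FPKM + 1) of 5 slow-fibre markers in each library, with circles for Wannanhua, squares for Yorkshire and the replicate number beside each point. Along the horizontal axis Wannanhua 1, 2 and 3 lie at 12.74, 12.75 and 10.84, and Yorkshire 1, 2 and 3 at 11.15, 9.39 and 10.18. Yorkshire 1 exceeds Wannanhua 3 on this axis and lies below it for all 3 genes.

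Markers of nerve were low. Of 8 neuron markers, 6 were in the table, with a summed level of 0.564 to 2.24 FPKM in Wannanhua and 0.751 to 0.829 FPKM in Yorkshire, and NEFL, PRPH, SNAP25 and SYT1 were listed at 0 in some library. Of 8 Schwann cell markers, 3 were in the table, with CDH19 at 0 in some library. Their sum did not overlap between the breeds, at 7.83 to 11.7 FPKM in Wannanhua and 0.853 to 5.62 FPKM in Yorkshire. KCNMA1, CLCN4 and CACNA2D3 shared this direction between the breeds. Within each breed the libraries ranked alike by this sum and by KCNMA1, with library 1 lowest and library 2 highest. For CLCN4 and CACNA2D3 the order differed. Yorkshire 1 had the lowest sum and the highest CLCN4 of the Yorkshire libraries. Wannanhua 1 had the lowest sum of the Wannanhua libraries, while Wannanhua 3 had the lowest CLCN4 and CACNA2D3. The part of Schwann cells in the differences was not tested. Of the endothelial, macrophage, fibroblast, adipocyte and satellite cell markers, 0 passed in limma (4 at an unadjusted p under 0.05, 2 of fibroblasts and 2 of satellite cells) and 0 in edgeR.

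Yorkshire 1 was the lowest of the 6 libraries for 12 of the 28 tested channel genes (42.9%), against 36.3% of all tested genes. It set the low end of SCN4A, CACNA2D1, KCNN3, KCNMA1 and CHRNA1. Wannanhua 2 was the highest for 8 of the 28 (28.6%), against 27.0% of all tested genes.

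Genes that work beside the channels were read from 4 lists. Pumps and exchangers had 13 of 16 genes in the table and tested, with a median log2 fold change of 0.60. Past limma's threshold were 1 gene higher, against 1.76% of all genes, and 1 lower, against 1.29%, both of the sodium pump, and 6 of 13 had an unadjusted p under 0.05, against 22.1% of all genes. ATP1B1, the beta 1 subunit of the pump, was higher, at 261 ± 23.4 FPKM in the Wannanhua libraries and 126 ± 3.35 FPKM in the Yorkshire libraries (SD, n = 3; limma adjusted p = 0.0321), and did not pass in edgeR (adjusted p = 0.0636). ATP1B2, the beta 2 subunit, was lower, at 1.17 ± 0.695 FPKM in the Wannanhua libraries and 7.54 ± 3.10 FPKM in the Yorkshire libraries (SD, n = 3; limma adjusted p = 0.0412). In edgeR 2 genes of the list passed, ATP1B2 (adjusted p = 0.029) and ATP2B3, a calcium pump of the cell membrane that was higher in Wannanhua (adjusted p = 0.0467) and did not pass in limma (adjusted p = 0.0979). In rat muscle the beta 1 form is known from slow oxidative and the beta 2 form from fast glycolytic fibres. Channel anchors and modulators had 11 of 16 genes in the table and 7 tested, with a median of 0.10. Past limma's threshold was 1 gene, higher, against 1.76% of all genes, and 2 had an unadjusted p under 0.05, against 22.1%. The gene past it was ANK3, ankyrin G, which anchors sodium channels at the nerve contact in mouse muscle. ANK3 stood at 96.1 ± 20.4 FPKM in the Wannanhua libraries and 34.1 ± 6.59 FPKM in the Yorkshire libraries (SD, n = 3; limma adjusted p = 0.0318). It passed in edgeR as well (adjusted p = 0.029). The other of the 2 was ANK1, which was lower in every Wannanhua library. ANK1 stood at 98.5 ± 20.4 FPKM in the Wannanhua libraries and 187 ± 26.7 FPKM in the Yorkshire libraries (SD, n = 3; limma adjusted p = 0.0706).

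The other 2 lists held no gene past the threshold. Neuromuscular junction partners had 9 of 15 genes in the table and 6 tested, with a median of -0.20 and 0 past limma's threshold (0 at an unadjusted p under 0.05, 0 in edgeR). MUSK, the kinase that gathers acetylcholine receptors, stood at 1.30 ± 0.738 FPKM in the Wannanhua libraries and 3.38 ± 3.36 FPKM in the Yorkshire libraries (SD, n = 3; limma adjusted p = 0.464). Other channels and channel subunits had 26 of 36 genes in the table and 17 tested, with a median of 0.11 and 0 past limma's threshold (5 at an unadjusted p under 0.05, 0 in edgeR). Among them ABCC9, the sulphonylurea receptor that pairs with ATP-sensitive potassium channels, stood at 18.8 ± 1.32 FPKM in the Wannanhua libraries and 9.74 ± 4.68 FPKM in the Yorkshire libraries (SD, n = 3; limma adjusted p = 0.134). KCNJ8, a pore subunit of such channels that was picked once its values were known, averaged 2.95 ± 1.16 and 2.79 ± 0.736 FPKM (SD, n = 3; limma adjusted p = 0.946). KCNJ11 is not analysed here.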

How the data were processed

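Poly-A RNA of 6 libraries was sequenced in pairs from a kit that does not mark strand, per the labels' protocols. CASAVA 1.7, TopHat2 2.0.6 and the build Sscrofa10.2 are listed, without a role, in the submitters' processing notes. No counter or annotation is named in the labels or the header. The authors' deposited FPKM is scaled for length and depth, per the file headers. The deposited values headed as counts are not whole and were read as a signal, reads divided by 1 factor per library. Between 99.71% and 99.82% of values above 0 were whole multiples of 1 step (within 0.01 of a read, or a relative 1e-05). The step was taken from the commonest value near 1, because a few values lay below 1 read.

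Symbols matched 10384 of 17627 identifiers (58.9%), from a table of unstated release. Left out as failed estimates were 7 genes, none a channel gene, with a scaled count of at least 10000 in some library and 0 in another. limma 3.58.1 (R 4.3.3) was fitted to log2(FPKM + 1) with breed as its only term and trend and robust settings, for genes with at least 1 FPKM in 3 or more libraries. Benjamini-Hochberg adjustment ran over all genes tested, with a threshold of 0.05. The fold change understates low genes. edgeR 4.0.16 (quasi-likelihood, TMM) and DESeq2 1.42.0 on the recovered reads were alternatives. All 3 were tested on simulated data, where limma made more false calls than its threshold aims at. Its calls near the threshold are thus less certain than their adjusted p. The simulation gave every gene the same setting for spread among libraries and no length effect. It cannot rank the 3 tools on these libraries.

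Genes described in full were those past the threshold in limma or edgeR, the 3 most abundant of each family, up to 12 tested genes of largest fold change without overlap, and 27 fixed muscle channels, of which 18 were in the table. KCNJ2, KCNJ11, KCNJ12, KCNQ1, CLCN1, SCN4B, CHRNB1, CHRND and CHRNG are not analysed here. Some genes of these families and lists, which the counts include, are not reported here. The members and lists were chosen with earlier results of these data known. Markers of the other cell types were read as summed FPKM. Alternatives were another pseudocount and filters, other settings of limma, quantile normalization, a block for the replicate number, the 7 genes kept, and each library left out.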

Additional observations from a re-analysis of the deposited data

How the results depend on the processing

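Of 11791 genes, 360 passed in limma, 57.8% of them higher in Wannanhua; 338 passed after quantile normalization, 40.8% higher. The count was 69 without a filter, 1255 in DESeq2, 375 in edgeR and 27 to 524 with each library left out in turn. Of the channel genes, 2 passed, CLCN4 among them. In limma without a filter, with a filter at 0.1 FPKM and after quantile normalization 0 passed. At an unadjusted limma p under 0.05 stood 13 of 86, 7 of 48 and 8 of 28 in these settings. They are not set beside the share of all genes. With each library left out 0 to 2 passed in limma, the 2 only without Wannanhua 3. DESeq2 called 8 of 36 channel genes, against 9.61% of all 13065 genes. CLCN4, KCNMA1, KCNIP2, CACNA2D3, CACNG1, CACNB1 and CHRNA9 were among the 8. In edgeR 3 of 36 passed, against 2.87% of all 13065. CACNA2D3, called in both, met their filter on reads through the Wannanhua libraries alone, the breed in which it was higher. With each library left out 0 to 3 passed in edgeR, an alternative chosen after seeing the data. The cause of these changes was not tested.

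The median log2 fold change of the channel genes, 0.12, was 0.01 without a filter, -0.01 after quantile normalization, -0.03 and -0.04 in edgeR with TMM and with size factors, -0.04 in DESeq2 and 0.04 to 0.30 with each library left out. By family the median in edgeR with TMM was -0.05 for potassium, -0.12 for calcium, -0.02 for chloride and 0.65 for the acetylcholine receptor genes. In limma with the filter at 0.1 FPKM it was -0.04, -0.02, 0.02 and 0.54 in the same order. Both settings include more genes than the main test. Directions turned in 6 of 25 genes, none of them called. CACNA2D1 was -0.12 in edgeR and DESeq2. CLCN7 was -0.10 after quantile normalization, -0.02 and -0.03 in edgeR and -0.03 in DESeq2. KCNC1 was 0.00 in DESeq2. With each library left out in turn, CHRNA10 ran from -0.05 to 0.61, CACNA2D1 from -0.45 to 0.61, KCNC4 from -0.12 to 0.42, KCNQ5 from -0.53 to 0.27 and KCNC1 from -0.28 to 0.28.

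With the replicate number as a block, 205 genes and 1 channel gene, KCNMA1, passed. Deviations of same-numbered libraries had correlations of 0.10, -0.01 and 0.11, and those of the other pairs ran from -0.13 to 0.02. With 3 libraries per breed these values cannot tell whether the numbers pair the libraries. Depth limits the genes under 1 FPKM, which rest on few reads.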

Other observations

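CHRNA9, CHRNA6 and KCNE1 were highest in Wannanhua 2. CHRNA9 (ENSSSCG00000024428), which pairs with CHRNA10 in hair cells, stood at 0.199, 17.4 and 1.65 FPKM in Wannanhua 1, 2 and 3, and at 0.0847, 0.417 and 0.180 FPKM in Yorkshire 1, 2 and 3. Wannanhua 2 held 437 reads of it, against 39 or fewer in each other library. In edgeR its log2 fold change was 4.58 and did not pass (adjusted p = 0.111, and 0.0312 to 0.379 over 10 alternatives), and it was 1.85 without Wannanhua 2. CHRNA6, a receptor subunit of nerve cells, had 33 reads in Wannanhua 2 and 1 in each of Wannanhua 1 and 3, and 1, 3 and 2 reads in Yorkshire 1, 2 and 3. KCNE1, an auxiliary subunit of a heart potassium channel, was also highest in Wannanhua 2, at 2.30, 7.93 and 0.645 FPKM in Wannanhua 1, 2 and 3, and 0.336, 0.601 and 1.43 FPKM in Yorkshire 1, 2 and 3. All 3 were picked after their values were seen.

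Among the 58 channel genes below the filter of limma, 8 (13.8%) did not overlap between the breeds, against 15.1% of all genes not tested in limma. In edgeR, CACNA2D3 and KCNIP2 passed, with the limits given above, and CACNB2 did not (adjusted p = 0.191). CACNA2D3, CACNB2, CACNG7 and KCNIP1 were higher in every Wannanhua library, and KCNIP2, KCNG2 and KCNK13 were among those lower. KCNIP1, which binds Kv4 channels, had 2, 7 and 5 reads in Wannanhua 1, 2 and 3 and was listed at 0 in the 3 Yorkshire libraries. It neighbours KCNMB1 in the RefSeq order, and the kit does not mark strand. CACNB2, a beta subunit best known from the heart, had 16, 35 and 21 reads in Wannanhua 1, 2 and 3, and 9, 15 and 10 reads in Yorkshire 1, 2 and 3. At such counts the order of the libraries rests on a few reads.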
